A study of Vernicia fordii with 6 samples.

Results

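Auxin is made, moved between cells, bound to amino acids and sensed by separate families of proteins, and 83 of the 56065 unigenes assembled from flower buds of the tung tree (V. fordii) belonged to these families or were named for their induction by auxin. They were chosen by the description of their best SwissProt match, which had to name auxin, indole-3-acetic acid, indole-3-pyruvate or PIN-LIKES. Unigenes described as auxin response factors, auxin-responsive IAA proteins or auxin receptors were left out. Some unigenes of the Aux/IAA type that are described as auxin-induced proteins stayed among the members. No description contained PIN-LIKES, although the authors name a PIN-LIKE gene, by its Arabidopsis match, among those higher in female flowers. The gene names given here are those of homologs in other species, and the contig that carries each name follows it in parentheses.

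Buds of male and of female flowers were taken at stage 7, with 3 samples for each sex. The trees were 4 years old, and buds of both sexes came from the same plant, each sample being a pool of buds. Stage 7 is the stage at which the sexes first differ in form: the centre of the male bud stays flat between its stamen primordia, while the centre of the female bud rises to form the gynoecium beside stamen primordia of its own. The question put to the samples was which genes differ between the sexes as the flowers become unisexual. Whole buds hold sepals, petals, stamens and the floral centre together, so that fewer cells of a type and less RNA per cell cannot be told apart.

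Auxin is a growth hormone that plants make from tryptophan, mainly by way of indole-3-pyruvate, which the YUCCA monooxygenases turn into indole-3-acetic acid. Carriers of the AUX1/LAX family bring it into cells and PIN carriers let it out on chosen sides, which sets up the local maxima that mark where floral organs start. GH3 enzymes join it to amino acids and so lower the free pool, and their own transcripts, like those of the SAUR genes, rise quickly when auxin is given. In flowers of Arabidopsis, auxin is known for its part in the start of organs, in the patterning of the gynoecium and in the growth of stamens.

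Reads counted on unigenes ranged from 11467832 to 40385019 per library. Female replicate 3 stood apart from the other libraries: 54.9% of its reads lay on the 5 most abundant unigenes, against 1.12% to 36.9% elsewhere, and its TMM factor, the edgeR scaling factor that corrects for such composition, was 0.319. Pearson's r of log2 expression across unigenes, which are not independent replicates, was 0.838 to 0.936 between male libraries and 0.767 to 0.938 between female libraries. Values called levels here are TMM-scaled RPKM (reads per kb of unigene, scaled to a common library size), so that they can be compared between unigenes and libraries, and 3 values of a sex stand in the order of replicates 1, 2 and 3. The identity of the samples was looked at through marker lists. The 2 stamen identity unigenes (DEFICIENS homologs) had summed levels of 207 to 489 in male and 130 to 173 in female libraries. The 24 unigenes named for AGAMOUS, AGAMOUS-like proteins, SPATULA or SUPERMAN had 427 to 599 in male and 267 to 370 in female libraries, none of them was called by edgeR, and 3 had an unadjusted p under 0.05. Of the 31 unigenes named for pollen, anther or tapetum or as exopolygalacturonases, all with reads, 7 of 24 tested were called and all 7 were higher in male flowers, while 8 of the 24 had a negative log2 difference and the median was 0.45. Their summed level was 1520 to 1996 in male and 168 to 327 in female libraries. The 9 unigenes for plastid-encoded photosynthesis proteins had summed levels of 972, 96.4 and 70.0 in male and 35.3, 25.5 and 449 in female libraries. Male replicate 1 and female replicate 3 were thus far above the other libraries of their sex.

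Of the 83 auxin members, 70 had enough reads for the test and 13 did not. Calls needed an adjusted p under 0.05 (edgeR's quasi-likelihood test, Benjamini-Hochberg, over all 29327 unigenes tested) together with a fold difference of at least 2. Called were 4 of the 70, beside 1.70% of all unigenes tested. A GH3.6 homolog, an AIR12 homolog and a SAUR homolog of X10A were higher in male flowers (3 members, background 1.56%), and an ABP19a homolog was higher in female flowers (1 member, background 0.143%). DESeq2 called 9 of the 83 members, 7 higher in male and 2 higher in female flowers, beside 3.15% of all unigenes. At an unadjusted p under 0.05 there were 13 members (18.6% of those tested, background 13.2%), of which 8 were higher in male flowers (background 5.75%) and 5 in female flowers (background 7.42%). The samples of the sexes did not overlap in 13 members (background 19.4%), 10 of which were higher in male flowers (background 10.4%) and 3 in female flowers (background 9.06%). On RPKM as deposited, which is scaled by library totals, 8 members did not overlap (6 and 2, background 4.74% for both directions). The median log2 difference, male minus female, was 0.22 over the 70 members and -0.09 over all unigenes tested.

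**Figure D1:**
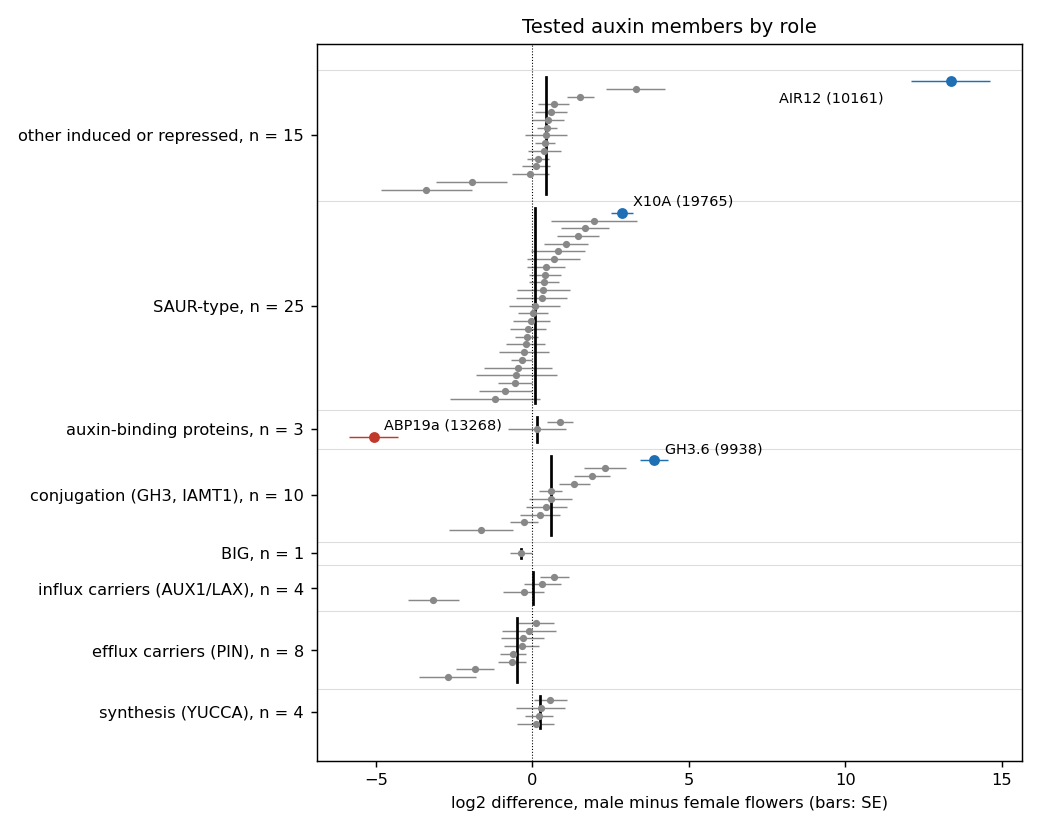
Log2 differences (male minus female flowers, with SE) of the 70 auxin members tested, grouped by role; each point is a unigene, coloured points passed the test (labelled by name and contig number) and black lines are the medians of the roles. The 4 members called lie at 13.37 (AIR12), 3.89 (GH3.6), 2.87 (X10A) and -5.08 (ABP19a). Of the 8 efflux carriers, 7 lie below 0, beside 15981 of all 29327 unigenes tested.

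Synthesis was represented by 6 YUCCA unigenes, and none was called by edgeR or DESeq2 or had an unadjusted p under 0.05 by edgeR. YUCCA enzymes carry out the last and rate-limiting step from indole-3-pyruvate to auxin, and in Arabidopsis YUC2 and YUC6 are needed for stamens to develop. All 6 had low levels, with a summed level of 3.67 to 5.66 in male and 2.49 to 3.64 in female libraries. The YUC10 homolog (contig_28456) had levels of 1.23, 1.51 and 1.26 in male and 1.29, 1.26 and 0.775 in female libraries. The groups overlapped, and its log2 difference was 0.22 (SE 0.45, adjusted p = 0.865 in edgeR's quasi-likelihood test). The YUC6 homolog (contig_28815) had 0.982, 1.60 and 1.08 in male and 1.03, 0.879 and 0.386 in female libraries, with a log2 difference of 0.57 (SE 0.52) and an adjusted p of 0.672 by edgeR. The female range reached into the male range. The YUC3 homolog (contig_19754) had 0.509 to 0.637 in male and 0.288 to 0.800 in female libraries, so that the male values lay inside the female range. Over the 4 tested YUCCA unigenes the log2 difference lay between 0.10 and 0.57, and its median of 0.24 was -0.18 with library totals in place of TMM scaling. The YUC2 homolog and a second YUC6 unigene had too few reads for the test, with at most 17 and 8 reads in a library.

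For efflux carriers of the PIN family the log2 difference was negative in 7 of the 8 tested unigenes, with a median at -0.48. Over all unigenes tested it was negative in 15981 of 29327. For the 8 PIN unigenes the count was 6 with DESeq2 and 6 without female replicate 3. None was called by edgeR or DESeq2, and 2 had an unadjusted p under 0.05 by edgeR. PIN3 and its close relatives redirect auxin flow within tissues, while PIN5, PIN6 and PIN8 act at least in part at the endoplasmic reticulum. The most abundant carrier was the PIN3 homolog (contig_2762), with levels of 35.2, 48.0 and 57.1 in male and 23.1, 22.8 and 83.5 in female libraries. Female replicates 1 and 2 lay below every male library and female replicate 3 above all of them. The log2 difference was 0.12 (SE 0.57, adjusted p = 0.946 by edgeR), and 1.03 without female replicate 3. This 1 unigene held 62.6% to 78.0% of the summed PIN level in male libraries and 38.8%, 38.8% and 83.1% in the female libraries.

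The largest difference among the PIN unigenes was that of the PIN6 homolog (contig_28682), which was named after its values were seen. It had 0.641, 0.1405 and 0.298 in male and 2.54, 3.77 and 0.252 in female libraries, so that female replicates 1 and 2 were high and female replicate 3 lay within the male range. Its log2 difference was -2.71 (SE 0.91, unadjusted p = 0.0181, adjusted p = 0.276 by edgeR). Without female replicate 3, its adjusted p was 0.0530. The PIN5 (contig_28162) and PIN8 (contig_16854) homologs had log2 differences of -0.35 (SE 0.55) and -0.32 (SE 0.68). The PIN2 homolog (contig_30302), known in Arabidopsis from the root tip, was not tested. It had 3 to 6 reads in each male and 57, 137 and 2 reads in the female libraries. Its levels were 0.293, 0.220 and 0.2045 in male and 0.858, 1.565 and 0.461 in female libraries. These levels did not overlap, although RPKM as deposited did.

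Influx carriers of the AUX1/LAX family numbered 5, of which 4 were tested. None was called by edgeR, while DESeq2 called 1, which also had an unadjusted p under 0.05 by edgeR. The LAX5 homolog (contig_11254) had levels of 1.64, 0.141 and 0.348 in male and 5.39, 6.91 and 6.18 in female libraries. All female libraries lay above all male libraries, and female replicate 3 stood among the other female libraries in this case. The log2 difference was -3.16 (SE 0.82, unadjusted p = 0.00491, adjusted p = 0.154 by edgeR). It was called by DESeq2 (adjusted p = 0.00496) and by edgeR without male replicate 1 (adjusted p = 0.0117). No other library left out gave a call, with adjusted p by edgeR of up to 0.515.

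The other influx carriers had higher levels and overlapping groups. A LAX2 homolog (contig_4937) had 15.7, 23.4 and 42.5 in male and 14.99, 17.4 and 67.3 in female libraries (log2 difference -0.29, SE 0.66). The other LAX2 homolog (contig_6197) had 16.6, 18.99 and 34.9 in male and 10.7, 9.33 and 36.8 in female libraries (0.32, SE 0.58). The LAX3 homolog (contig_3047) had 10.8, 18.1 and 24.6 in male and 7.87, 7.70 and 17.8 in female libraries (0.70, SE 0.46). In all 3 of these unigenes the highest library of each sex was replicate 3, and their adjusted p values by edgeR were 0.552 to 0.883. Without female replicate 3 the log2 differences were 0.75, 1.23 and 1.21. The AUX1 homolog (contig_25460) was not tested and had levels of 0.256 to 0.832 in male and 0.945 to 1.61 in female libraries.

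**Figure D2:**
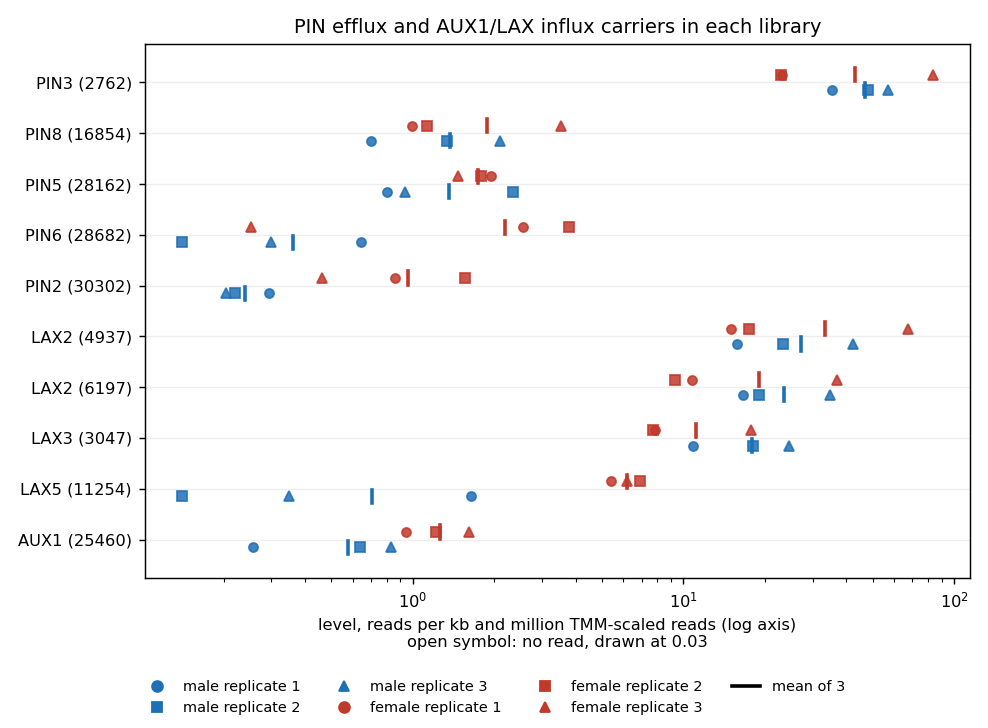
Level of 5 PIN and 5 AUX1/LAX unigenes in each library (log axis, TMM-scaled RPKM), with male libraries in blue, female libraries in red, a symbol for each replicate and a bar for the mean of 3. For LAX5 the 3 female libraries (5.39 to 6.91) lie above the 3 male libraries (0.141 to 1.64), while for PIN3 female replicate 3 (83.5) lies apart from the other female libraries (22.8 and 23.1).

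BIG (contig_1224), a very large protein needed for polar auxin transport in Arabidopsis, had 9.65, 7.45 and 6.06 in male and 8.43, 10.2 and 11.2 in female libraries. Its log2 difference of -0.37 (SE 0.35, adjusted p = 0.688 by edgeR) lay within the spread of the replicates. AXR4 (contig_6465), an endoplasmic reticulum protein that AUX1 of Arabidopsis needs to reach its place in the cell membrane, had 18.7 to 24.7 in male and 14.0 to 26.9 in female libraries. It is counted with the last group below by its description, and was named after its values were seen.

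Conjugation was represented by 10 unigenes, all tested, with a median log2 difference of 0.58 (0.07 with library totals and 0.33 without female replicate 3). Of the 10, 8 had a positive log2 difference (background 45.5%), and 6 did with library totals in place of TMM scaling. An unadjusted p under 0.05 by edgeR was found for 4, all of them higher in male flowers (background 5.75%). The GH3 unigenes are described as indole-3-acetic acid-amido synthetases, several of them as probable or putative. Which acid each of them joins to amino acids was not tested. The summed level of the group was 119, 106 and 114 in male and 37.0, 37.7 and 28.6 in female libraries.

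The GH3.6 homolog (contig_9938) rose in male flowers. GH3.6 of Arabidopsis, also known as DFL1, makes conjugates of auxin with amino acids. The levels were 35.5, 60.7 and 72.1 in male and 2.69, 3.87 and 4.86 in female libraries. The lowest male library lay above the highest female library, and the means were 56.1 ± 18.7 (SD, n = 3) and 3.80 ± 1.09 (SD, n = 3). The log2 difference was 3.89 (SE 0.46), a 14.8-fold higher level in male flowers, with an adjusted p of 0.00463 in edgeR's quasi-likelihood test. It was called with any of the 6 libraries left out, at log2 differences from 3.66 to 4.13. The unigene held 29.7% to 63.3% of the summed level of the conjugation group in male libraries and 7.27% to 17.0% in female libraries.

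Another 3 GH3 unigenes had all male libraries above all female libraries without being called. Over all unigenes tested, 10.4% had this separation, called or not. On RPKM as deposited it held for contig_6075 alone of the 3. A homolog of rice GH3.5 (contig_6075) had 37.0, 8.44 and 11.8 in male and 4.70, 4.77 and 5.90 in female libraries, a log2 difference of 1.90 (SE 0.56, adjusted p = 0.217 by edgeR). Male replicate 1 was the high library, and without it the log2 difference was 0.99. A GH3.1 homolog (contig_35546) had 0.702, 2.75 and 3.88 in male and 0.609, 0.504 and 0.245 in female libraries, a log2 difference of 2.32 (SE 0.68, adjusted p = 0.212 by edgeR). DESeq2 called both, at adjusted p values of 0.0400 and 0.0252. The GH3.17 homolog (contig_16058), named after its values were seen, had 9.27, 4.86 and 7.00 in male and 4.37, 2.49 and 1.23 in female libraries (log2 difference 1.34, SE 0.49, adjusted p = 0.310 by edgeR).

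The other GH3 unigenes had overlapping groups. A GH3.9 homolog (contig_6652) had 9.47, 7.46 and 5.97 in male and 5.52, 6.20 and 3.31 in female libraries, with a log2 difference of 0.59 (SE 0.36, adjusted p = 0.531 by edgeR). The remaining 4 ranged from -0.27 to 0.58. Of these, contig_28329 and contig_28330 have consecutive numbers, match rice GH3.5 and GH3.12 and share the name GH3.5 in their NR matches. In both, male replicate 1 was the highest library (14.1 and 8.06) and lay above every female library (1.77 to 6.97 and 1.88 to 4.00). At 929 and 584 bp they are shorter than the called GH3.6 unigene (4064 bp), and whether they are pieces of 1 transcript was not tested.

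The IAMT1 homolog (contig_3602) was the conjugation member with the lowest log2 difference. IAMT1 of Arabidopsis methylates indole-3-acetic acid, although the NR match of this unigene is named a benzoate carboxyl methyltransferase. It had levels of 0.865, 0.162 and 0 in male and 0.910, 1.19 and 1.02 in female libraries. The sexes did not overlap, with male replicate 1 just below the lowest female library, but they did on RPKM as deposited. The log2 difference of -1.66 (SE 1.02, adjusted p = 0.531 by edgeR) lay within the spread of the replicates.

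**Figure D3:**
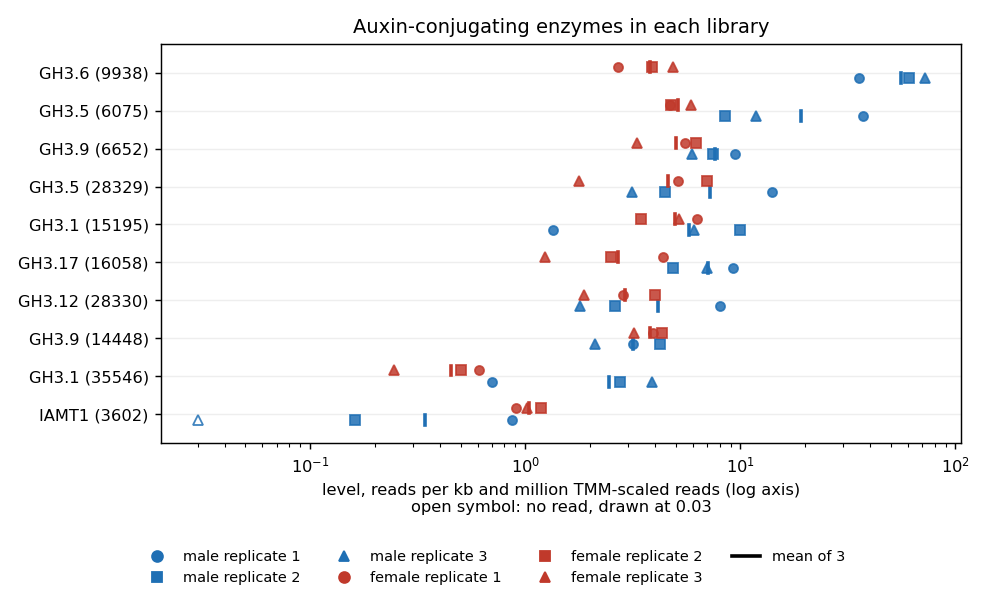
Level of the 10 conjugation unigenes in each library (log axis, TMM-scaled RPKM), male libraries in blue and female in red, with a symbol for each replicate and a bar for the mean of 3. For GH3.6 the male libraries (35.5 to 72.1) and the female libraries (2.69 to 4.86) are well separated, while most other members lie within a narrower range.

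Auxin-binding proteins numbered 3, and their members differed among themselves. ABP19a of peach belongs to the germin-like proteins of the cell wall, and T85 of tobacco is a homolog of ABP1, an auxin-binding protein of the endoplasmic reticulum and cell surface. An ABP19a homolog (contig_13268) was the only member that edgeR called as higher in female flowers, where DESeq2 also called LAX5 (contig_11254). It had 1.38, 0.154 and 0.643 in male and 12.2, 24.99 and 33.6 in female libraries. The sexes did not overlap, the means were 0.727 ± 0.619 (SD, n = 3) and 23.6 ± 10.8 (SD, n = 3), and the level in female flowers was 33.8-fold higher (log2 difference -5.08, SE 0.79, adjusted p = 0.0181 in edgeR's quasi-likelihood test). The call was lost without male replicate 3 (adjusted p = 0.124) or without female replicate 2 (0.0559), over a range from 3.76e-09 to 0.124 across the alternatives, while the log2 difference stayed between -5.99 and -4.53 with each library left out.

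The other ABP19a homolog (contig_8320) showed another pattern, with 24.2, 26.8 and 64.5 in male and 8.24, 9.33 and 88.8 in female libraries. Female replicates 1 and 2 were the lowest libraries and female replicate 3 the highest. The log2 difference was 0.15 (SE 0.92, adjusted p = 0.958 by edgeR), and 2.14 without female replicate 3. In female replicates 1 and 2 the called homolog was the more abundant of the pair, and in the male libraries the other was. The T85 homolog (contig_26857) had 7.604, 6.70 and 4.76 in male and 4.34, 3.57 and 2.08 in female libraries. Its groups did not overlap, although they did on RPKM as deposited. Its log2 difference was 0.89 (SE 0.42, adjusted p = 0.410 by edgeR).

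SAUR-type small proteins were the largest group, with 33 unigenes, of which 25 were tested. SAUR genes are short, and their transcripts appear within minutes of auxin treatment in soybean and mung bean, where X10A, 15A, 6B, 10A5 and ARG7 were first described. Several SAUR proteins of Arabidopsis promote cell expansion. In 20 of the 25 tested unigenes the highest of the 6 libraries was male replicate 3 (10 unigenes) or female replicate 3 (10 unigenes). Over all unigenes tested these libraries were the highest in 35.3%. The summed level of the group was 308 in male replicate 3 and 477 in female replicate 3, and 77.9 to 181 in the other libraries. The log2 differences of the group spanned -1.19 to 2.87. Their median of 0.08 was 0.87 without female replicate 3.

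A homolog of X10A (contig_19765) was the SAUR-type unigene that rose in male flowers, and its highest library was also male replicate 3. Its levels were 9.88, 16.3 and 18.96 in male and 1.82, 2.01 and 2.41 in female libraries. Every male library was above every female library, with means of 15.04 ± 4.66 (SD, n = 3) and 2.08 ± 0.301 (SD, n = 3). The level was 7.29-fold higher in male flowers (log2 difference 2.87, SE 0.36, adjusted p = 0.00587 in edgeR's quasi-likelihood test). It was called with any library left out, at adjusted p values from 0.00510 to 0.0455. The call was lost with library totals in place of TMM scaling (0.287) and with limma on log2(RPKM + 1) (0.610), where the log2 differences were 2.61 and 2.25. Limma on log2(RPKM + 0.1) lost it as well. At 2612 bp the unigene was the longest of the SAUR-type group, and its NR match is also an auxin-induced protein, ARG7 of Ricinus.

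The 3 most abundant SAUR-type unigenes were not called. The most abundant, a 10A5 homolog (contig_1714), had 10.4, 7.00 and 67.9 in male and 3.24, 8.72 and 183.6 in female libraries. Replicate 3 was far above the rest in both sexes, and the log2 difference turned from -1.19 (SE 1.44) to 2.25 without female replicate 3. An X15 homolog (contig_4460) had 11.6, 16.7 and 30.2 in male and 2.33, 7.63 and 73.1 in female libraries, with a log2 difference of -0.46 (SE 1.08) that was 1.97 without female replicate 3. An ARG7 homolog (contig_3200) had 24.7, 5.96 and 12.6 in male and 2.91, 22.8 and 26.8 in female libraries (log2 difference -0.26, SE 0.80). Adjusted p values of the 3 were 0.759 to 0.914 by edgeR. The 8 SAUR-type unigenes that were not tested had between 0 and 31 reads in each library.

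**Figure D4:**
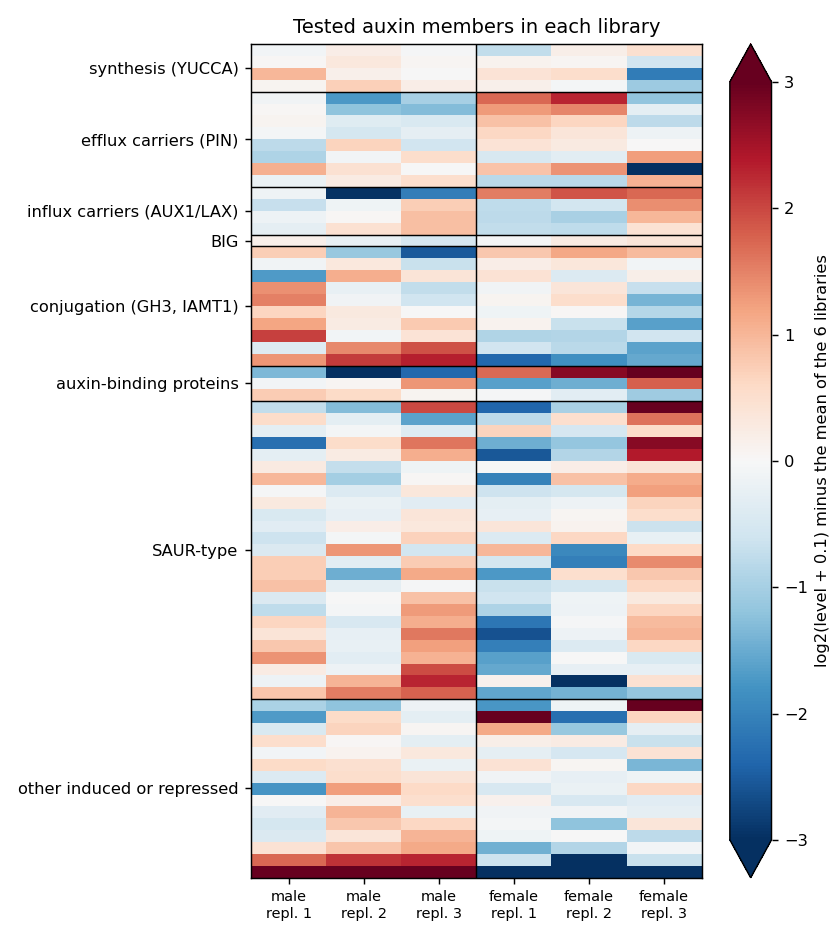
The 70 auxin members tested, 1 row each, in the 6 libraries; colour is log2(level + 0.1) minus the mean of the member over the libraries, and rows are ordered within a role by the log2 difference between the sexes. In the SAUR-type block most rows are highest in replicate 3 of 1 sex or the other (20 of 25), whereas the called members at the edges of the blocks separate the sexes.

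The last group, with 16 unigenes, held other proteins named for their induction or repression by auxin. Of the 15 tested, 12 had a positive log2 difference (background 45.5%), and 10 did with library totals in place of TMM scaling. The group included 7 homologs of AIR12. This is a cytochrome of the outer face of the plasma membrane whose transcript rises in auxin-treated root cultures of Arabidopsis. An AIR12 homolog (contig_10161) had the largest difference of all members. Its levels were 86.7, 126.7 and 235.6 in male and 0, 0 and 0.298 in female libraries. The male libraries held 6260 reads and the female libraries 1 read, a ratio of 17840 after scaling, and the 95% interval for counting error alone was 3201 to 704800. The fitted log2 difference of 13.37 (SE 1.27, adjusted p = 0.00165 in edgeR's quasi-likelihood test) depends on the prior count. It was called with any library left out.

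The other AIR12 homologs were found in both sexes. The unigene with the preceding number (contig_10160), which has an NR match of the same name, had 15.8, 130 and 82.0 in male and 38.9, 47.3 and 83.6 in female libraries (log2 difference 0.43, SE 0.68). A further homolog (contig_11573), named after its values were seen, had 63.7, 83.9 and 104 in male and 17.3, 25.4 and 44.3 in female libraries. Its sexes did not overlap, and the log2 difference was 1.53 (SE 0.44, adjusted p = 0.199 by edgeR). It was called without female replicate 3 (adjusted p = 0.0408 by edgeR) and with DESeq2 (0.0365). With any other library left out it was not called, at adjusted p values by edgeR of up to 0.598. The homolog contig_7213, also named after its values were seen, had 3.61 to 18.0 in male libraries and 98.8, 2.43 and 18.9 in female libraries, a log2 difference of -1.93 (SE 1.14). The NR matches of contig_11573 and contig_32468 are named dopamine beta-monooxygenase and not AIR12. The sources used here do not give how reads shared between similar unigenes were counted, so that the values of single AIR12, GH3 and SAUR-type unigenes are uncertain where their sequences are alike.

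ARG2, an auxin-induced protein of mung bean that resembles the late embryogenesis abundant proteins, had a homolog (contig_28191) with 126.1, 173.5 and 187.3 in male and 24.9, 1.20 and 24.2 in female libraries. Every male library lay above every female library, and female replicate 2 was the lowest. The log2 difference was 3.30 (SE 0.94) and the adjusted p was 0.198 by edgeR. It was called without female replicate 2 (0.0343), with DESeq2 (0.00452), with limma on log2(RPKM + 1) (2.99e-04) and with library totals (0.0450). Leaving out any other library gave no call, with adjusted p by edgeR of up to 0.508.

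The homolog of the auxin-repressed protein of strawberry (contig_223), whose relatives are transcripts that auxin lowers and that are abundant in resting buds, was the most abundant member. It had 250.0, 209.8 and 432.4 in male and 142.8, 438.0 and 8785 in female libraries. Female replicate 3 lay far above all other libraries, and the other female libraries enclosed the male range. The log2 difference was -3.39 (SE 1.45, adjusted p = 0.373 by edgeR), and 0.04 without female replicate 3. The 5 Aux/IAA-type unigenes of this group (22B, 22D, AUX22 and AUX28 homologs) had log2 differences from -0.07 to 0.68, and the homolog of ARGOS, a regulator of organ size in Arabidopsis, had 0.59 (SE 0.52).

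**Figure D5:**
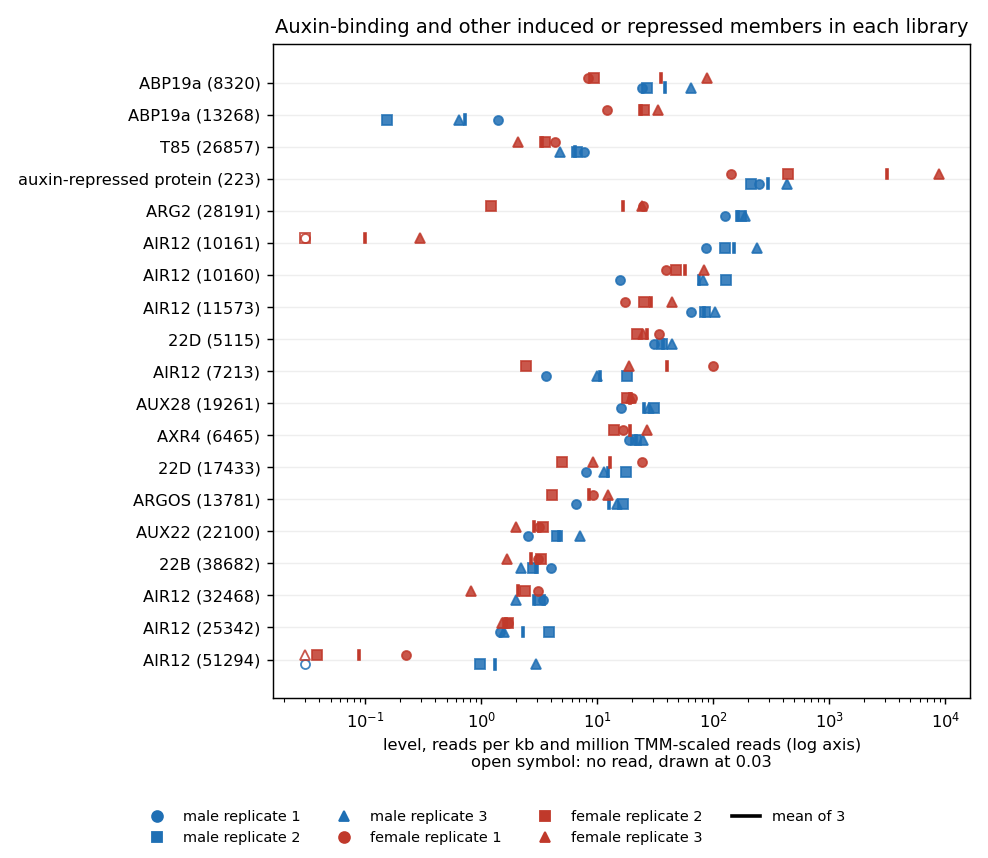
Level of the auxin-binding proteins and the other auxin-induced or repressed members in each library (log axis, TMM-scaled RPKM; an open symbol means no read), male libraries in blue and female in red. AIR12 (contig_10161) has levels of 86.7 to 235.6 in male libraries and at most 0.298 in female libraries, ABP19a (contig_13268) has 12.2 to 33.6 in female and at most 1.38 in male libraries, and female replicate 3 lies at 8785 for the auxin-repressed protein.

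The male calls were set beside the pollen and anther markers, of which 7 of 24 tested were called. Of the 24, 8 had a negative log2 difference, and the median was 0.45. Those called included an exopolygalacturonase (contig_36496), an enzyme of pollen that breaks down pectin, with levels of 106.0, 178.7 and 147.6 in male and 0, 0.00806 and 0 in female libraries. A homolog of the pollen allergen Ole e 6 (contig_36801) had 107.5 to 172.8 in male libraries and no read in female libraries. The AIR12 homolog (contig_10161) was near 0 in the same libraries. The GH3.6 (contig_9938) and X10A (contig_19765) homologs had levels of 2.69 to 4.86 and 1.82 to 2.41 in female libraries. The part of anther or pollen cells in these differences was not tested.

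Around the members, 105 further unigenes of the auxin pathway were looked at in 6 lists, of which 85 were tested. By edgeR none passed, while 15 had an unadjusted p under 0.05 (4 with male and 11 with female flowers on the higher side, where the shares over all unigenes were 13.2%, 5.75% and 7.42%) and DESeq2 called 5 of the 105 (3.15% of all unigenes). The 17 unigenes for the making of tryptophan and for the routes from it to auxin had a median log2 difference of -0.23 (15 tested). The 11 unigenes for hydrolases of auxin conjugates, which free auxin again, had 0.27 (11 tested). The 22 unigenes for ABCB carriers had -0.32 (14 tested). Of these, 2 unigenes with opposite differences were named after their values were seen. An ABCB11 homolog (contig_7068) had levels of 10.6, 12.3 and 12.8 in male and 4.63, 5.28 and 3.19 in female libraries, without overlap (log2 difference 1.44, SE 0.30, adjusted p = 0.0756 by edgeR). A homolog of the auxin exporter ABCB19 (contig_9627) had levels of 25.9, 29.1 and 11.5 in male and 66.1, 63.5 and 46.7 in female libraries, also without overlap (log2 difference -1.41, SE 0.40, adjusted p = 0.198 by edgeR). The 5 unigenes for kinases and partners of PIN carriers, such as PINOID, had -0.20 and all 5 log2 differences were negative. Over all unigenes tested, 15981 of 29327 were negative. The 47 unigenes for auxin receptors, Aux/IAA proteins and auxin response factors had -0.06 (38 tested), and the 3 for SHI-type activators of auxin synthesis -0.43 (2 tested).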

How the data were processed

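Illumina reads came from RNA of the buds of each sex. The authors trimmed and assembled them and then counted the reads of each unigene with a program that the sources used here do not name. The deposited table gives these counts and the RPKM that the authors computed from counts, unigene length and library total. Columns marked gy and an were read as female and male, which their numbers match to the samples, and 7 lines after the table were left out.

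Unigenes were filtered with filterByExpr, scaled by TMM and tested in R 4.3.3 with edgeR 4.0.16 (quasi-likelihood F test, prior count 0.125, Benjamini-Hochberg adjustment over 29327 unigenes). The SE is the log2 difference, without its sign, over the square root of F. Between replicates the biological coefficient of variation was 51%. For 3 samples in each sex, the smallest p of an exact two-sided permutation test is 0.1. The samples are called biological replicates, each a pool of buds, and p-values measure the spread between these samples only. The edgeR, DESeq2 1.42.0 and limma 3.58.1 steps were also run on simulated data, the outcome of which is not given here. The simulated libraries kept the effective totals, but none had an unusual composition like that of female replicate 3. Tables and figures were made in Python 3.11.15. Effective totals ran from 3648171 (female replicate 3) to 73636463 reads, so that low levels are least precise in female replicate 3.

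The members, roles and lists were chosen with earlier results of these data known. Named members were those called, the 3 with the highest level in each role, and in each direction the 5 with the largest difference among those whose sexes did not overlap. Within each sex, deviations from the mean were correlated by 0.185, 0.121 and 0.326 for samples of the same number, and by -0.288 to 0.148 otherwise. These ranges overlap, so that the numbers give no more than a hint that the samples are paired. The main fit had no pairing, and a fit with the replicate number as a block was run beside it. Other alternatives were median-of-ratios scaling, library totals, no expression filter, a filter at a mean RPKM of 5, DESeq2, limma on log2(RPKM + 1) and log2(RPKM + 0.1), no fold threshold, and each library left out. No unigene sequences were used here. The values of 4 efflux carrier unigenes are not reported here one by one.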

Additional observations from a re-analysis of the deposited data

How the results depend on the processing

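The 4 calls were kept under median-of-ratios scaling, without a filter, with a filter at a mean RPKM of 5 and with the replicate block. Leaving out the fold threshold, which cannot lose a call, added none. With library totals and with both limma settings 4 members were called, of which 3 were among these 4. The call lost in each was that of X10A (contig_19765). Over all unigenes, 499 were called, 802 without a filter, 287 with a filter at a mean RPKM of 5, 1766 with DESeq2 and 287 to 867 with each library left out. DESeq2 called 9 members and 5 related pathway unigenes, and 3 to 5 members were called with each library left out. The sexes did not overlap in 13 members, and in 8 on deposited RPKM. Library totals shifted the median log2 difference of all unigenes by -0.32 and gave medians of -0.18 for synthesis, -0.99 for efflux carriers, -0.67 for BIG and 0.069 for conjugation. With each library left out, medians ran from -0.43 to 0.98 for influx carriers, 0.33 to 0.88 for conjugation, -0.46 to 0.69 for auxin-binding proteins and -0.14 to 0.87 for the SAUR-type group.

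Among the members named by rule, some differences that were not called changed sign, and the cause was not tested. With library totals these were YUC3 (-0.15), YUC10 (-0.22), LAX2 contig_4937 (0.040) and X15 contig_4460 (0.50). With limma on log2(RPKM + 1) they were YUC3 (-0.018), YUC10 (-0.013) and X15 contig_4460 (0.63). With limma on log2(RPKM + 0.1) they were X15 contig_4460 (0.70) and ARG7 contig_3200 (0.00082). With the replicate block, X15 contig_4460 had 0.75. With each library left out, log2 differences ran from -0.29 to 0.30 for YUC3, -3.96 to 0.040 for the auxin-repressed protein, -0.77 to 0.75 for LAX2 contig_4937, -0.088 to 1.23 for LAX2 contig_6197, -1.03 to 1.97 for X15 contig_4460, -2.92 to 2.25 for 10A5 contig_1714, -0.91 to 0.17 for ARG7 contig_3200, -0.46 to 2.14 for ABP19a contig_8320 and -0.19 to 1.03 for PIN3. Depth limits the 13 members not tested and low levels in female replicate 3.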
